A study of Mus musculus with 10 samples.

Results

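The 4 Tead transcription factors and the genes around them in the Hippo pathway were followed by single-cell RNA sequencing of mouse intestinal organoids and colonic crypts. The set was chosen by name, and it holds 10 of the 31053 genes counted, namely Tead1, Tead2, Tead3, Tead4, Yap1, Wwtr1, Lats1, Lats2, Vgll4 and Nf2. Earlier results of these data were known when the set and the gene lists below were chosen, so counts over them are a description. Each level is a count of unique molecular identifiers (UMIs, 1 per captured transcript molecule). The 8 organoid libraries held 196838 UMIs of the 10 genes and the 2 colonic libraries held 7727.

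Organoids are epithelial cultures grown in Matrigel from crypts, here of the proximal small intestine. For ENR-organoids (3 libraries, passages 2, 7 and 3) the factors were R-Spondin 1, Noggin and EGF. Hyper-organoids (3 libraries, passages 1, 6 and 3) were kept with VPA (valproic acid, which blocks histone deacetylases) at 500 μM and EPZ6438 (which blocks the histone methyltransferase EZH2) at 2 μM. Their medium also held Pexmetinib, FGF2, GSK-3 Inhibitor XV, EGF, LDN193189 and medium conditioned by R-Spondin 1. The -VE-organoids (2 libraries, passages 1 and 6) had, by the study's methods, this medium with neither VPA nor EPZ6438. In medium, Hyper- against -VE-organoids therefore sets that pair of inhibitors apart, while the comparisons with ENR-organoids also differ in other components. Replicates 1, 2 and 3 are called culture series 2, 6 and C after the sample titles, and strain and age of the mice are not given in the labels. In series 2 and 6 the -VE- and Hyper-organoids had been ENR-organoids before, whereas both libraries of series C, ENR and Hyper, go back directly to primary crypts. Series C has no -VE library, so Hyper- against -VE-organoids also includes a Hyper library of another origin. Colonic crypts came from normal mice and from mice given dextran sulfate sodium (DSS), which injures the colonic epithelium, with 1 library each.

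In the Hippo pathway, the kinases LATS1 and LATS2 phosphorylate the coactivators YAP (Yap1) and TAZ (Wwtr1) and keep them out of the nucleus. Merlin (Nf2) helps to bring LATS kinases to the membrane, where they are activated. YAP and TAZ do not bind DNA themselves and act through TEAD factors, and VGLL4 competes with them for TEAD. In the intestine the pathway is best known from regeneration after injury, in which YAP becomes active in the crypt.

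The organoid libraries held 22139 cells kept by the authors (1983 to 4293 per library), with 89124015 to 170019527 UMIs per library and a median of 38173.5 to 50651.5 UMIs per cell. Of the 22076 distinct barcodes, 63 occurred in more than 1 organoid library. The markers Epcam, Cdh1, Krt8 and Krt18 summed to 3358 to 4166 CPM (UMIs on the counts-per-million scale) in the organoid libraries. The 6 fibroblast markers summed to 0.0449 to 0.0895 CPM in ENR-organoids, 0.0647 to 0.107 CPM in -VE-organoids and 0.532 to 0.838 CPM in Hyper-organoids, and the 3 smooth muscle markers to 0.00814 to 0.0411, 0.00821 to 0.0176 and 0.209 to 0.421 CPM. Both lists were higher in Hyper-organoids, and their part in the results below was not tested. Markers of endothelium, leukocytes and glia stood at 0.436 to 1.91 CPM in every organoid library.

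The stretches of sequence just before the annotated starts of 4 members are shown because Tead2, Wwtr1 and Lats2 rose in Hyper-organoids while Yap1, the partner of Wwtr1 in the family of coactivators, did not. They come from RefSeq promoter windows of build GRCm38.p6, end at the base before an annotated first exon (for Lats2, that of a shorter transcript), and are written 5′ to 3′ on the strand of the gene. Capitals mark GGAATG, the core motif bound by TEAD factors, or its reverse complement.
Tead2, chr7:45215542-45215752, plus strand: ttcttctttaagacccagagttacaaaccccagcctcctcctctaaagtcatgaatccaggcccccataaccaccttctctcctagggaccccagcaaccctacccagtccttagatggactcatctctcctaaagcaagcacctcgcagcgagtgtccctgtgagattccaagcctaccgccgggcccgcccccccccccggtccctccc
Wwtr1, chr3:57575911-57576160, minus strand: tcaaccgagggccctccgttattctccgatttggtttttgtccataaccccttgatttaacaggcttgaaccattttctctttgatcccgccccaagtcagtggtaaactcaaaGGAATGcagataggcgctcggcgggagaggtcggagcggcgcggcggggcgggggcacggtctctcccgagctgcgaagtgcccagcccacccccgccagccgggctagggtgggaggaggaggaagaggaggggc
Lats2, chr14:57746124-57746373, minus strand: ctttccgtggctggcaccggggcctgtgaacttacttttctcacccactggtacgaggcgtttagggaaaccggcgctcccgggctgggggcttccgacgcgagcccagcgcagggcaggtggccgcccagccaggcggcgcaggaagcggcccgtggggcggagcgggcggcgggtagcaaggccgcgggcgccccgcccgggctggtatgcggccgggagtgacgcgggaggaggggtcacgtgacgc
Yap1, chr9:8004597-8004846, minus strand: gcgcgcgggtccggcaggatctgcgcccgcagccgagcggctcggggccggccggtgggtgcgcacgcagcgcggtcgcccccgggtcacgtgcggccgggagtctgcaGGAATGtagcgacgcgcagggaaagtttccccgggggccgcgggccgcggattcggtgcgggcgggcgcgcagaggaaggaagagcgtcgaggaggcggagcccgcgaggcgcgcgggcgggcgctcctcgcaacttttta
The Tead2 stretch of 211 bases held 6 CpG pairs, against 18 in Wwtr1, 31 in Lats2 and 44 in Yap1, each over 250 bases. The Lats2 stretch lies before an internal start, inside an intron of longer GENCODE transcripts of the gene. Over whole windows of 300 bases (250 before and 50 after a start), the median of 32851 RefSeq windows was 7 CpG pairs. Tead2 held 13 in its window, Wwtr1 19 and 20 in its pair of windows, Tead3 25 to 34, Vgll4 34, Lats1 42 and Yap1 49. Lats2 held 37 in the window shown in part above and 4 in another, and Nf2 held 22 and 2, so that Lats2 and Nf2 each had a window below the median. GGAATG on either strand was in 14.7% of all windows, and in at least 1 window of 5 of the 8 members with a window (Tead3, Yap1, Wwtr1, Lats2 and Vgll4). The former is a share of windows and the latter a count of genes, some with more than 1 window, so they are not compared. The Lats2 match is not within the stretch shown above. TGANTCA, the AP-1 motif, was in 7.81% of all windows and in no window of these members. These are matches of letters only, and with no TGANTCA in the members' windows no match of one motif could overlap the other.

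Tead1 lies at chr7:112679318-112906807 and Tead2 at chr7:45215753-45233644, both on the plus strand of GRCm38. Tead3 is at chr17:28331671-28350817 and Tead4 at chr6:128224288-128300823, both on the minus strand. Yap1 is at chr9:7931999-8004596 and Wwtr1 at chr3:57455649-57575910, both on the minus strand. Lats1 is at chr10:7681214-7716460 on the plus strand, and Lats2 at chr14:57689662-57758388 on the minus strand. Vgll4 is at chr6:114860628-114969994 and Nf2 at chr11:4765845-4849536, both on the minus strand. All 10 genes are annotated as protein coding.

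Within the Tead family, Tead2 and Tead4 rose in Hyper-organoids by over 4-fold against both other media, Tead1 rose by less than 2-fold, and Tead3 did not pass the test. The coactivator Wwtr1 and the kinase Lats2 rose as well, while their paralogues Yap1 and Lats1 fell by small amounts. Of the 10 genes, 4 were called higher in Hyper- than in ENR-organoids and 4 in Hyper- than in -VE-organoids, and 0 were called lower. A gene was called at an adjusted p under 0.05 in edgeR's quasi-likelihood test and at least a 2-fold change. Over the 16037 genes tested, 18.2% were called higher against ENR-organoids and 16.1% against -VE-organoids. In UMIs summed over a library, fewer cells of a type and less RNA per cell cannot be told apart. The 3 comparisons share libraries, so their values are given side by side.

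**Figure D1:**
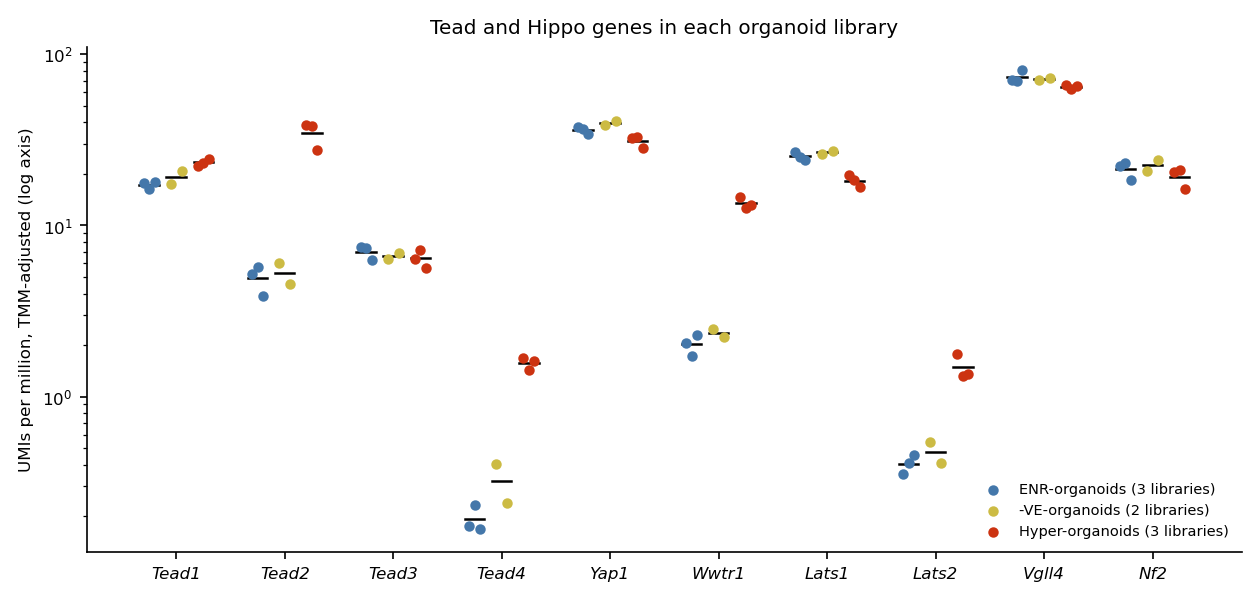
Levels of the 10 genes in each of the 8 organoid libraries, in CPM after TMM adjustment (log axis), with points for libraries and black bars for group means. The Hyper-organoid points of Tead1, Tead2, Tead4, Wwtr1 and Lats2 lie above every point of the other groups, and those of Yap1, Lats1 and Vgll4 lie below. In plain CPM, without TMM, the Hyper-organoid values of Yap1 overlap with ENR-organoids and those of Vgll4 with both other groups. How many of all genes separate in this way was not counted, so the separation is a description. By edgeR 9111 of 16037 genes had an adjusted p under 0.05 between Hyper- and ENR-organoids.

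Tead2, a TEAD factor best known from early embryos, stood at 5.23, 5.74 and 3.87 CPM in the ENR-organoids of replicates 1 to 3, at 6.02 and 4.55 CPM in the -VE-organoids and at 38.6, 38.3 and 27.7 CPM in the Hyper-organoids. CPM in all kept cells is given after adjustment by trimmed mean of M-values (TMM). The lowest Hyper-organoid library, which was the series started from primary crypts, was still far above the highest of the other 5. The means were 4.95 ± 0.969 CPM (SD, n = 3), 5.29 ± 1.04 (n = 2) and 34.9 ± 6.21 (n = 3). By edgeR the log2 fold change was 2.81 (SE 0.20, adjusted p = 1.40e-05) against ENR-organoids and 2.73 (SE 0.23, adjusted p = 9.13e-05) against -VE-organoids.

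Tead4, best known for its role in the trophectoderm, was scarce in ENR- and -VE-organoids. It stood at 0.176, 0.234 and 0.167 CPM in the ENR libraries, 0.402 and 0.237 in the -VE libraries and 1.69, 1.43 and 1.62 in the Hyper libraries. The Hyper-organoid libraries did not overlap with the others. Its log2 fold change was 3.02 (SE 0.26, edgeR adjusted p = 4.12e-05) against ENR-organoids and 2.31 (SE 0.29, adjusted p = 0.000519) against -VE-organoids.

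Tead1, the broadly expressed TEAD of adult tissues, stood at 17.8, 16.2 and 18 CPM in ENR-organoids, at 17.5 and 20.9 with the -VE medium and at 22.2, 23.3 and 24.6 with the Hyper medium. The Hyper-organoid libraries were again the highest, but by a much smaller step. The log2 fold change was 0.43 (SE 0.08, edgeR adjusted p = 0.00235) against ENR-organoids and 0.28 (SE 0.09, adjusted p = 0.0334) against -VE-organoids. Without -VE replicate 1 the latter had an adjusted p of 0.213 by edgeR.

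Tead3 stood at 7.46, 7.38 and 6.27 CPM in the ENR libraries, 6.41 and 6.87 in the -VE libraries and 6.41, 7.19 and 5.65 in the Hyper libraries. The groups overlapped. The log2 difference was -0.13 (95% interval -0.36 to 0.09, edgeR adjusted p = 0.354) against ENR-organoids and -0.05 (-0.30 to 0.20, adjusted p = 0.781) against -VE-organoids.

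Wwtr1, which encodes TAZ, stood at 2.05, 1.72 and 2.28 CPM in ENR-organoids, at 2.49 and 2.23 with the -VE medium and at 14.7, 12.6 and 13.2 with the Hyper medium. The 3 Hyper-organoid libraries lay close together and far from the others. The log2 fold change was 2.75 (SE 0.13, edgeR adjusted p = 2.55e-06) against ENR-organoids and 2.52 (SE 0.15, adjusted p = 2.07e-05) against -VE-organoids.

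Yap1, the paralogue of Wwtr1, stood at 37.8, 36.6 and 34.3 CPM in the ENR libraries, 38.5 and 40.9 in the -VE libraries and 32.6, 32.9 and 28.2 in the Hyper libraries. After TMM every Hyper-organoid library was below every other library. In plain CPM, without TMM, the Hyper libraries (34.7, 34.9 and 29.7) overlapped with the ENR libraries (37.5, 35.6 and 32.3). The -VE libraries stood at 37.0 and 39.5 plain CPM. Yap1 fell by 0.34 on the log2 scale against -VE-organoids (SE 0.08, edgeR adjusted p = 0.00825) and by 0.21 against ENR-organoids (SE 0.07, adjusted p = 0.033). The former no longer passed in 1 of 18 alternative analyses. The latter no longer passed in 8 of 18, with an adjusted p of up to 0.227 by edgeR.

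The LATS kinases moved in opposite directions. Lats1 stood at 27.1, 25 and 24.2 CPM in ENR-organoids, at 26.2 and 27.4 with the -VE medium and at 19.7, 18.3 and 16.7 with the Hyper medium. It fell by 0.48 (SE 0.07, edgeR adjusted p = 0.000823) against ENR-organoids and by 0.55 (SE 0.08, adjusted p = 0.00106) against -VE-organoids on the log2 scale. Lats2 stood at 0.352, 0.409 and 0.454 CPM in the ENR libraries, 0.539 and 0.408 in the -VE libraries and 1.78, 1.32 and 1.36 in the Hyper libraries. In both genes the Hyper-organoid libraries stood apart from the other 5. Lats2 had log2 fold changes of 1.88 (SE 0.22, edgeR adjusted p = 0.000183) and 1.65 (SE 0.25, adjusted p = 0.00115) against ENR- and -VE-organoids.

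Vgll4, the competitor of the coactivators, stood at 70.8, 70.0 and 81.1 CPM in ENR-organoids, at 70.7 and 73.1 with the -VE medium and at 66.1, 62.5 and 65.4 with the Hyper medium. After TMM the Hyper-organoid libraries were the lowest, by a narrow margin. In plain CPM they stood at 70.4, 66.3 and 68.7. These values overlapped with the ENR libraries (70.3, 68.2 and 76.2) and the -VE libraries (67.8 and 70.6). Vgll4 fell by 0.19 on the log2 scale against ENR-organoids (SE 0.07, edgeR adjusted p = 0.0332), and its log2 difference from -VE-organoids was -0.15 (SE 0.07, adjusted p = 0.118). With a block for culture series the adjusted p values were 0.0177 and 0.0373 by edgeR, and in 11 of 18 alternatives the first was above 0.05, up to 0.353.

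Nf2 stood at 22.1, 23.2 and 18.5 CPM in the ENR libraries, 20.8 and 24.3 in the -VE libraries and 20.4, 21 and 16.3 in the Hyper libraries. The groups overlapped, and the series C library was the lowest in both media that had one. The log2 difference was -0.14 (95% interval -0.38 to 0.10, edgeR adjusted p = 0.341) against ENR-organoids and -0.23 (-0.49 to 0.04, adjusted p = 0.201) against -VE-organoids. With a block for culture series, the edgeR adjusted p against ENR-organoids was 0.0446 for a log2 change of -0.15.

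Members that were lower at an adjusted p under 0.05 by edgeR whatever the fold numbered 3 against ENR-organoids (Yap1, Lats1 and Vgll4), where 27.3% of all genes were, and 2 against -VE-organoids (Yap1 and Lats1), where 22.6% of all genes were. The members' shares were thus near those of all genes. Between -VE- and ENR-organoids, 0 members were called and 0 had an adjusted p under 0.05 by edgeR, where 2.55% of all genes were called and 7.88% had such an adjusted p. At an unadjusted p under 0.05 by edgeR there was 1, Tead4, against 24% of all genes, and by DESeq2 0, against 16.7%. The log2 difference of Tead4 was 0.71 (95% interval 0.13 to 1.28, edgeR adjusted p = 0.189). The intervals of the log2 difference were -0.32 to 0.50 for Tead2 and -0.04 to 0.50 for Wwtr1, so that changes of the size seen in Hyper-organoids lay outside them.

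The classes of cells differed in share between the media. The class annotated as stem held 12.2% ± 2.48 of cells in ENR-organoids, 26.2% in -VE-organoids and 42.1% ± 2.02 in Hyper-organoids, and enterocyte progenitors held 27.0% in ENR-organoids and 8 cells in all Hyper-organoids. The stem, transit amplifying, goblet and enteroendocrine classes, each with at least 20 cells in every library, were also summed after scaling to equal totals. All other classes were left out of this sum. The log2 fold changes against ENR-organoids were then 2.23 for Tead2, 2.69 for Tead4, 2.48 for Wwtr1 and 1.77 for Lats2. Against -VE-organoids they were 2.62, 2.43, 2.55 and 1.52. The 4 genes thus also differed by over 2-fold in the sum over these classes at equal totals. The part of the class shares in the changes over all kept cells was not tested.

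The annotated classes were checked against their markers. In ENR-organoids Lgr5, Ascl2, Olfm4 and Cd44 summed to 3884 CPM in the stem class and 2332 CPM in the transit amplifying class. In Hyper-organoids the sums were 495 CPM (268 to 923 over libraries) and 511 CPM (283 to 952). The sum thus did not set their stem class apart, and the class is named here by its annotation only. The markers were not read singly. By the study, Lgr5, Cd44 and Ascl2 were shared by stem cells of both media, while Olfm4 was lower in injury-responsive stem cells. The sum therefore cannot show whether any single marker set the class apart. Markers of dividing cells (Top2a, Ube2c, Hmgb2 and Tubb5) summed to 1313 CPM in the Hyper-organoid stem class and to 3662 CPM in its transit amplifying class. In the stem class of Hyper-organoids the fibroblast list summed to 0.704 CPM, with Col1a2, Col3a1 and Lum at 0.

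Within the stem class, 4 of 10 members were called higher against ENR-organoids, where 15.2% of all genes were, and 4 against -VE-organoids, where 14.7% were. They were the same genes as in all kept cells, namely Tead2, Tead4, Wwtr1 and Lats2. Both counts include Tead4, whose call in this class is not read as a test result, as given below. The counts are thus not set against the shares of all genes. By the study, stem cells of Hyper- and ENR-organoids fell into different clusters, and their transit amplifying cells were separated as well. A change within either class therefore also compares cells of different clusters. Levels in a class are CPM of the UMIs of that class in that library. Stem class Tead2 stood at 8.60, 10.5 and 6.81 CPM in ENR-organoids, at 6.29 and 4.88 with the -VE medium and at 45.3, 44.0 and 29.5 with the Hyper medium. Stem class Wwtr1 stood at 2.94, 1.22 and 3.27 CPM, then 2.45 and 1.71, then 16.7, 13.5 and 14.3. For both genes the Hyper-organoid values lay above all others. Tead2 had log2 fold changes of 2.06 (SE 0.20, edgeR adjusted p = 4.15e-05) against ENR-organoids and 2.72 (SE 0.22, adjusted p = 2.38e-05) against -VE-organoids, and Wwtr1 had 2.52 (SE 0.28) and 2.74 (SE 0.30). For Lats2 they were 1.78 and 1.32. Stem class Tead4 passed the low-count filter only through Hyper-organoid libraries, so its call is not read as a test result. It had 5 UMIs in ENR-organoids, 18 in -VE-organoids and 201 in Hyper-organoids, with fitted log2 fold changes of 3.09 and 2.32. The first ran from 2.75 to 6.43 over the alternatives, the highest after thinning to 10000 UMIs, which left 0 UMIs in ENR-organoids. Without -VE replicate 2, Lats2 against -VE-organoids was 1.14 (edgeR adjusted p = 0.109). Yap1, Lats1 and Vgll4 fell in both comparisons, by 0.22 to 0.46 against ENR-organoids and 0.23 to 0.48 against -VE-organoids. Of 12 alternatives, Yap1 against ENR-organoids no longer passed in 10 (edgeR adjusted p up to 0.490), among them those without ENR replicate 1, 2 or 3 (0.163, 0.0838 and 0.0661), -VE replicate 1 or 2 (0.0651 and 0.0650) and Hyper replicate 2 or 3 (0.0740 and 0.0929). Vgll4 against -VE-organoids no longer passed in 9 (up to 0.154), which included leaving out any library but ENR replicate 2 or 3. Lats1 against ENR-organoids did not pass in 2, thinned cells (edgeR adjusted p = 0.237) and without ENR replicate 1 (0.0523). Yap1 against -VE-organoids did not pass in 2, thinned cells (edgeR adjusted p = 0.168) and without -VE replicate 2 (0.0652). Lats1 against -VE-organoids and Vgll4 against ENR-organoids passed in all 12. Stem class Tead1 rose by 0.32 (edgeR adjusted p = 0.0123) against ENR-organoids and by 0.28 (adjusted p = 0.0276) against -VE-organoids. The first did not pass in thinned cells (edgeR adjusted p = 0.113), and the second not without -VE replicate 1 (0.242), -VE replicate 2 (0.0552) or Hyper replicate 3 (0.0576).

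In the transit amplifying class, the dividing daughters of stem cells, 4 of 10 members were called higher against ENR-organoids (17.2% of all genes) and 4 against -VE-organoids (15.5% of all genes). They were again Tead2, Tead4, Wwtr1 and Lats2. Transit amplifying Tead2 stood at 4.95, 5.87 and 4.04 CPM in the ENR libraries, 4.10 and 2.99 in the -VE libraries and 37.5, 38.6 and 28.3 in the Hyper libraries, with no overlap. Its log2 fold changes were 2.69 (SE 0.17, edgeR adjusted p = 6.52e-06) and 3.19 (SE 0.21, adjusted p = 1.63e-05). Wwtr1 had 2.50 and 2.54, Tead4 2.85 and 3.03, and Lats2 2.21 and 1.83. Transit amplifying Tead4 rested on 25 UMIs in ENR-organoids, 26 in -VE-organoids and 289 in Hyper-organoids, and against -VE-organoids it ran from 2.40 without -VE replicate 2 and 3.88 without -VE replicate 1 to 5.08 after thinning, which left 1 UMI in -VE-organoids. Yap1 fell by 0.27 and 0.36 and Lats1 by 0.45 and 0.55 on that scale, and Vgll4 fell by 0.26 against ENR-organoids. The log2 difference of Vgll4 from -VE-organoids was -0.12 (edgeR adjusted p = 0.232), and it did not pass in 11 of 12 alternatives. Transit amplifying Tead1 rose by 0.28 against ENR-organoids (edgeR adjusted p = 0.0429), and its log2 difference from -VE-organoids was 0.28 (adjusted p = 0.0696). The first did not pass in 5 of 12 alternatives, in thinned cells (edgeR adjusted p = 0.0755) and without ENR replicate 1 (0.0609), ENR replicate 2 (0.142), Hyper replicate 2 (0.0753) or Hyper replicate 3 (0.116). The second passed without -VE replicate 2 (edgeR adjusted p = 0.0462) or Hyper replicate 1 (0.0486). After thinning every cell to 10000 UMIs, the adjusted p values of Lats2 by edgeR were 0.102 and 0.202.

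Goblet cells secrete mucus. In this class 3 of 9 members tested were called higher against ENR-organoids, where 10.7% of all genes were, and 3 against -VE-organoids, where 8.72% were. These were Tead2, Tead4 and Wwtr1, and Lats2 was too scarce to be tested. Goblet Tead2 stood at 15.4, 19.8 and 11.9 CPM in ENR-organoids, at 18.5 and 13.1 with the -VE medium and at 49.3, 47.2 and 32.5 with the Hyper medium. The Hyper-organoid libraries stood above the others, and the ENR-organoid level was above that of the stem class. Its log2 fold changes were 1.33 (SE 0.20, edgeR adjusted p = 0.000396) and 1.42 (SE 0.20, adjusted p = 0.000542). Wwtr1 rose by 2.18 and 2.03 on that scale, and Tead4 by 1.88 and 1.76. Over 10 alternatives the Tead4 value against ENR-organoids ran from 1.46 to 2.83. Lats1 fell by 0.42 and 0.47 (edgeR adjusted p = 0.0383 and 0.0365), and Yap1 fell by 0.49 against -VE-organoids (adjusted p = 0.0211). The Tead4 call against -VE-organoids was lost without -VE replicate 2 (1.22, edgeR adjusted p = 0.247) and without Hyper replicate 3 (1.63, adjusted p = 0.0617). Of 10 alternatives, Lats1 against ENR-organoids no longer passed in 4, without ENR replicate 1 or 3 or Hyper replicate 2 or 3 (edgeR adjusted p 0.147, 0.0988, 0.112 and 0.102). Lats1 against -VE-organoids no longer passed in 5, without -VE replicate 1 or 2, ENR replicate 3 or Hyper replicate 2 or 3 (edgeR adjusted p 0.229, 0.0661, 0.0526, 0.106 and 0.103). Yap1 against -VE-organoids no longer passed in 4, without -VE replicate 1 or 2 or Hyper replicate 1 or 3 (edgeR adjusted p 0.110, 0.103, 0.0695 and 0.0802).

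In the enteroendocrine class, the hormone cells of the gut, 8 members were tested. Wwtr1 was at 0 UMIs in all 3 ENR-organoid libraries, at 1 and 3 UMIs in the -VE-organoids (0.585 and 1.49 CPM) and at 27, 17 and 10 UMIs in the Hyper-organoids (10.2, 7.89 and 5.28 CPM). Pooled over libraries it was at least 9.89-fold higher than in ENR-organoids, taking 3 UMIs over the group (0.814 CPM) as the floor, and 7.51-fold higher than in -VE-organoids (95% counting interval 2.77 to 28.6). It was the 1 member called higher by edgeR in each comparison, where 5.96% of all genes were against ENR-organoids and 3.52% against -VE-organoids. Since it passed the low-count filter only through Hyper-organoid libraries, this call is not read as a test result, and the counts are given as a description.

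Tead2 behaved otherwise in enteroendocrine cells. It stood at 35.7, 47.1 and 45.2 CPM in the ENR libraries, 47.9 and 41.1 in the -VE libraries and 63.7, 55.7 and 49.1 in the Hyper libraries. The level was already high without VPA and EPZ6438, and the log2 difference was 0.48 (95% interval 0.14 to 0.82, edgeR adjusted p = 0.0908) against ENR-organoids and 0.32 (-0.04 to 0.68, adjusted p = 0.378) against -VE-organoids. Between -VE- and ENR-organoids 0 members were called by edgeR in the stem, transit amplifying, goblet and enteroendocrine classes, where 0.503%, 1.03%, 1.14% and 0.19% of all genes were. In these classes 0 members had an adjusted p under 0.05 by edgeR whatever the fold, where 1.54%, 3.14%, 2.23% and 0.199% of all genes did. At an unadjusted p under 0.05 by edgeR there were 2, 1, 0 and 1 members, against 17.7%, 19.2%, 18.1% and 12.8% of all genes. These were Tead2 and Vgll4 in the stem class, Tead2 in the transit amplifying class and Wwtr1, which had 0 UMIs in ENR-organoids, in enteroendocrine cells. The log2 difference of Tead2 between -VE- and ENR-organoids was -0.66 (95% interval -1.12 to -0.20, edgeR adjusted p = 0.188) in the stem class and -0.49 (-0.88 to -0.10, adjusted p = 0.223) in the transit amplifying class. That of Vgll4 in the stem class was -0.23 (-0.39 to -0.07, edgeR adjusted p = 0.187). DESeq2, run in the first 2 classes, gave 2 and 1, against 10.6% and 12.6%.

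**Figure D2:**
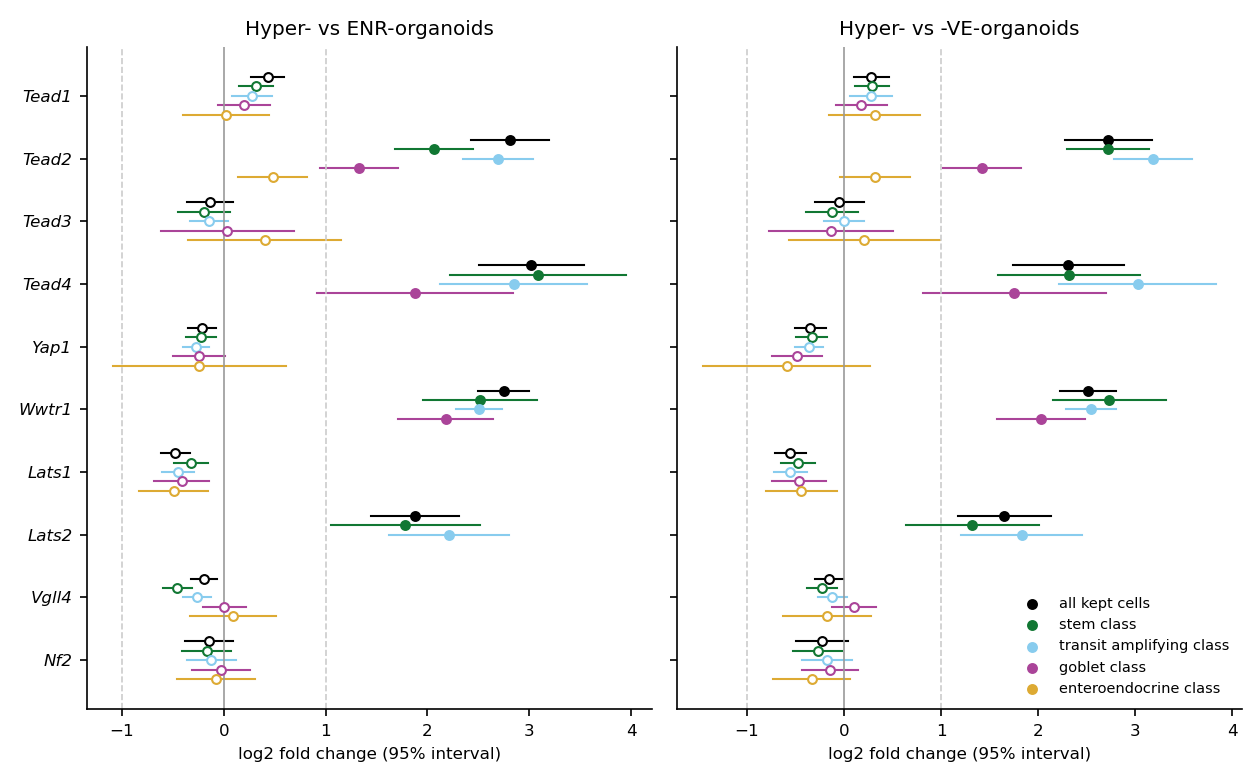
The log2 fold change of each gene by edgeR in all kept cells and in 4 annotated classes, with 95% intervals by a normal approximation. Filled points were called and dashed lines mark a 2-fold change. Stem class Tead4 is filled but passed the low-count filter only through Hyper-organoid libraries, so its call is not read as a test result. Tead2 runs from 2.69 in the transit amplifying class to 0.48 in the enteroendocrine class against ENR-organoids; Wwtr1 in enteroendocrine cells is left out because ENR-organoids held 0 UMIs of it.

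Whether a gene's change differed between classes was tested as the class-by-group term in edgeR. Against ENR-organoids the stem class differed from the enteroendocrine class in 1 of 9 members tested (10.9% of all genes), from the goblet class in 2 of 10 (14.1%) and from the transit amplifying class in 2 of 10 (15.1%). Against -VE-organoids it differed in 1 of 9 (4.37% of all genes), 1 of 10 (3.86%) and 1 of 10 (11.7%). These counts are 1 or 2 genes each, and Tead2 was among them every time. The Tead2 change in the stem class exceeded that in the enteroendocrine class by 1.62 on the log2 scale against ENR-organoids (SE 0.21, edgeR adjusted p = 7.73e-05) and by 2.41 against -VE-organoids (SE 0.21, adjusted p = 4.18e-06). It exceeded that in the goblet class by 0.77 (edgeR adjusted p = 0.00129) and 1.34 (adjusted p = 1.71e-05). It was smaller than that in the transit amplifying class, by a difference of -0.61 (edgeR adjusted p = 0.000395) and -0.46 (adjusted p = 0.00448). Without -VE replicate 2 the last of these had an adjusted p of 0.105. Vgll4, the other gene, had a more negative change in the stem class than in the goblet class, by a difference of -0.43 (edgeR adjusted p = 0.00742) and than in the transit amplifying class by -0.17 (adjusted p = 0.0162), both against ENR-organoids, and the latter had an adjusted p of 0.0522 without Hyper replicate 3.

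Levels across classes are a description, since the authors clustered the cells on their expression. In ENR-organoids Tead2 ran from 42.7 ± 6.10 CPM in enteroendocrine cells through goblet (15.7 ± 3.93), stem (8.65 ± 1.87), transit amplifying (4.96 ± 0.918), Paneth (2.55 ± 2.77) and enterocyte progenitor cells (1.86 ± 0.570) to enterocytes (0.199 ± 0.0803), each over 3 libraries. The ranges of the enteroendocrine, goblet, stem and transit amplifying classes did not overlap with one another, while the Paneth range spanned 0 to 5.50 CPM and overlapped with those on both sides. In -VE-organoids enterocytes held 0 Tead2 UMIs in 393 cells, which with exact Poisson limits allows up to 0.258 CPM. In Hyper-organoids the spread narrowed, from 56.2 ± 7.27 CPM in enteroendocrine cells and 43.0 ± 9.13 in goblet cells to 39.6 ± 8.79 in stem and 34.8 ± 5.64 in transit amplifying cells. Neighbours among these 4 classes overlapped, and enterocytes (86 cells) stood at 1.37 CPM.

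**Figure D3:**
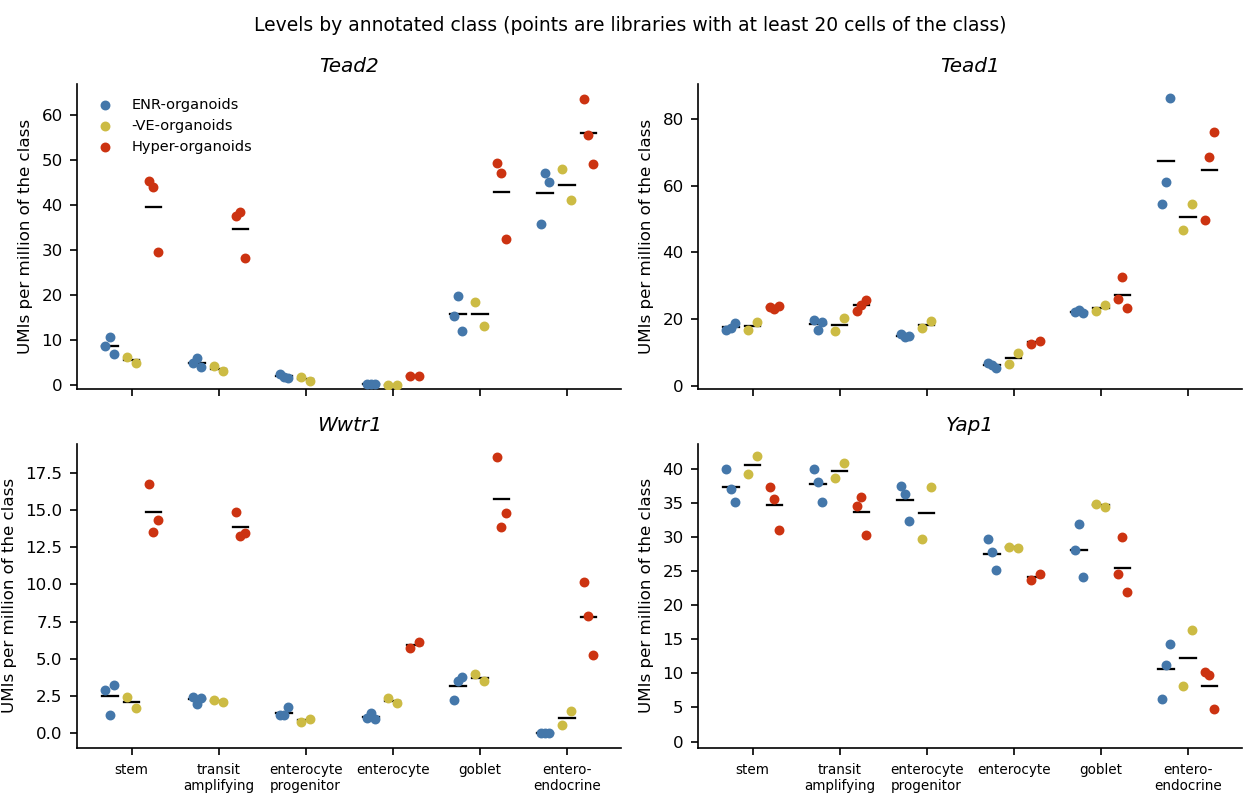
Plain CPM of each class (linear axis) for Tead2, Tead1, Wwtr1 and Yap1, with 1 point for each library that held at least 20 cells of the class. Within ENR-organoids, Tead2 and Tead1 are highest in enteroendocrine cells (42.7 and 67.3 CPM) and the mean of Yap1 is lowest there (10.6 CPM); in Hyper-organoids the enteroendocrine means of Tead2 and Yap1 are 56.2 and 8.22 CPM.

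Tead1 also led in enteroendocrine cells of ENR-organoids, at 67.3 ± 16.8 CPM (n = 3 libraries), against 22.3 in goblet, 18.5 in transit amplifying, 17.6 in stem, 15 in enterocyte progenitor, 14.4 in Paneth and 6.18 CPM in enterocyte cells. The stem and transit amplifying ranges overlapped. Yap1 stood at 37.8 CPM in transit amplifying, 37.4 in stem, 35.4 in enterocyte progenitor, 28.1 in goblet, 27.5 in enterocyte, 13.1 in Paneth and 10.6 ± 4.12 CPM in enteroendocrine cells. Of these 7 classes, enteroendocrine cells thus held the most Tead1 and Tead2 and the lowest mean of Yap1, with Wwtr1 at 0 UMIs in 212 cells. Neighbours among the first 3 Yap1 classes overlapped, as did goblet cells with enterocytes and Paneth with enteroendocrine cells. Lats1 stood at 52.3 ± 11.9 CPM in enteroendocrine cells, 35.8 in Paneth, 33.0 in goblet and 21.8 to 24.8 CPM in the other classes of ENR-organoids. Lats2 was at 3.19 CPM in enteroendocrine cells and 1.24 CPM in enterocytes. Vgll4 lay at 69.6 to 82.1 CPM in 5 classes, at 57.4 in Paneth cells and at 25.8 CPM in enterocytes. Nf2 spanned 12.4 CPM in Paneth to 28.5 CPM in enteroendocrine cells, and Tead3 4.28 to 7.26 CPM over the same classes.

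A class annotated as RSC (revival stem cells, a state described after injury) had 0 cells in ENR-organoids, 25 in -VE-organoids and 45 in Hyper-organoids, too few for a test. There Wwtr1 stood at 27.4 ± 8.72 CPM in -VE-organoids and 44.6 ± 18.7 CPM in Hyper-organoids. Lats2 was at 1.63 ± 2.31 CPM (2 UMIs) in the -VE-organoid and 8.94 ± 2.69 CPM in the Hyper-organoid RSC class, and Tead2 at 6.92 ± 7.48 (5 UMIs) and 37.6 ± 28.2 CPM. Yap1 was at 35.4 ± 28.5 and 39.7 ± 7.80 CPM in the -VE- and Hyper-organoids. For Wwtr1 and Lats2 the Hyper-organoid values were the highest class means in the organoids.

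The share of cells with a UMI was read for Tead2 and Wwtr1. After thinning each cell to 10000 UMIs, Tead2 was found in 4.96% ± 0.946 of ENR-organoid cells (n = 3 libraries), 4.75% of -VE-organoid cells and 29.2% ± 5.22 of Hyper-organoid cells (14.1%, 15.8% and 70.0% unthinned). Wwtr1 was found in 1.83%, 2.31% and 13.2% of thinned cells (7.10%, 8.36% and 43.6% unthinned). Both shares were thus several times larger in Hyper-organoids at equal depth. Small changes of level did not always show in the shares: thinned Vgll4 was found in 47.6% of ENR-organoid and 49.2% of Hyper-organoid cells (83.4% and 87.7% unthinned) and Yap1 in 28.0% and 26.5% (68.1% and 70.0% unthinned), while the summed levels of both were lower in Hyper-organoids. In enterocytes of ENR-organoids thinned Tead2 was found in 0.102% of cells and Wwtr1 in 0.631%. Their unthinned medians were 32330.5 to 39846.5 UMIs per cell, against 38173.5 to 47868 over all ENR-organoid cells. The part of free RNA in the shares of any class or medium was not tested. Of the Hyper-organoids, 1 library (replicate 2) held enough enterocytes to be read, 57 after thinning, with a median of 42736 UMIs before it. There Tead2 was found in 1.75% (exact binomial 95% interval 0.0444 to 9.39) and Wwtr1 in 7.02% (1.95 to 17.0), or 8.62% and 20.7% of 58 unthinned enterocytes. The thinned Tead2 shares in the stem class were 8.26%, 5.31% and 30.4%, and in the enteroendocrine class 22.6%, 25.2% and 30.6%. Wwtr1 was in 0 of 212 enteroendocrine cells of ENR-organoids unthinned, and in 6.51% of thinned enteroendocrine cells of Hyper-organoids.

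The balance within each pair or family of paralogues is read as a share of their UMIs. The tags come from the 3′ end and are not scaled by length, but capture can differ between genes, so the shares are compared between groups and not between genes. Tead2 took 16.7% ± 2.89 of Tead UMIs in ENR-organoids (n = 3), 16.9% ± 4.15 in -VE-organoids (n = 2) and 52.4% ± 5.13 in Hyper-organoids (n = 3). Tead1 took 58.8% ± 4.43, 60.9% and 35.5% ± 4.99, Tead3 23.8% ± 1.48, 21.1% and 9.67% ± 0.491, and Tead4 0.652% ± 0.120, 1.03% and 2.40% ± 0.351. The Hyper-organoid libraries did not overlap with the ENR-organoids in any of the 4 shares, and each gave p = 0.1 in a two-sided exact permutation test (0.1 after Benjamini-Hochberg adjustment over 4), the smallest that 3 against 3 libraries allow. The 4 shares of a library are parts of one total and so are not separate results. A larger Tead2 part lowers the others whatever their own levels. Tead1 stood at 17.3 CPM in ENR- and 23.4 CPM in Hyper-organoids, and Tead3 at 7.04 and 6.42 CPM. The Tead2 difference between Hyper- and ENR-organoids was 35.7 percentage points. Within the stem class alone, Tead2 took 25.6% ± 4.51 of Tead UMIs in ENR-organoids, over 1.5 times its share in all kept cells, 18.2% ± 3.88 in -VE-organoids and 54.9% ± 5.70 in Hyper-organoids. Wwtr1 took 5.29% ± 0.876 of the UMIs of Wwtr1 and Yap1 in ENR-organoids, 5.63% in -VE-organoids and 30.2% ± 2.19 in Hyper-organoids. For Lats2 among Lats1 and Lats2 the shares were 1.58% ± 0.281, 1.74% and 7.50% ± 0.776.

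**Figure D4:**
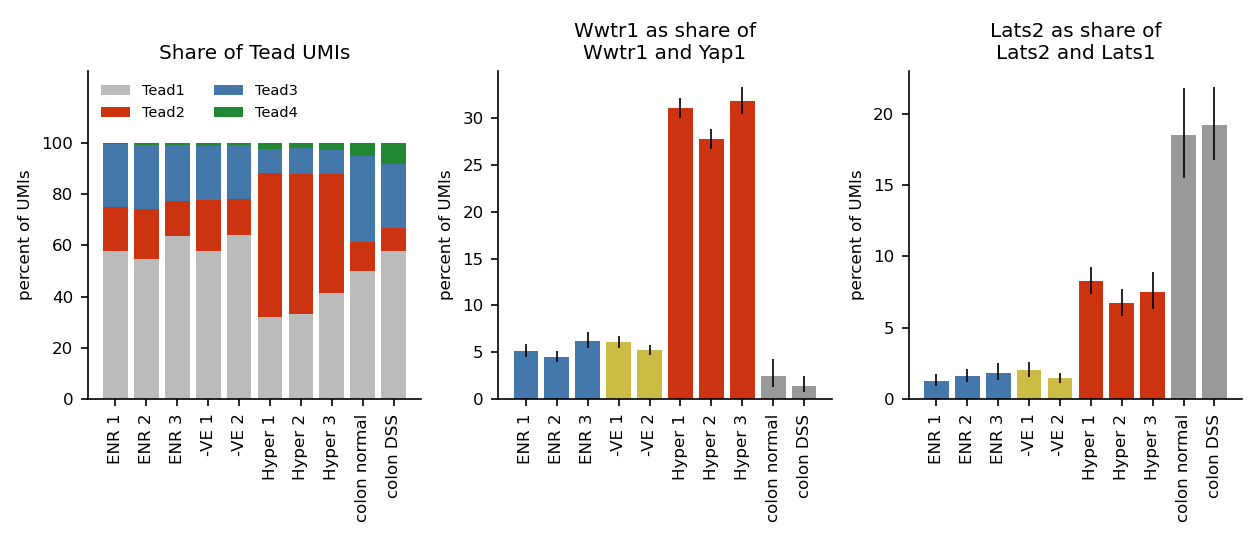
Shares of the UMIs of each paralogue family in every library, in percent: stacked Tead shares at the left, and Wwtr1 among Wwtr1 and Yap1 and Lats2 among both Lats genes with exact 95% binomial intervals at the right, colonic libraries in grey. Tead2 takes 46.5% to 56.1% of Tead UMIs in the 3 Hyper-organoid libraries, above every other library.

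Regulators of the pathway outside the members were counted over a list of 36 genes. Most are upstream, such as the MST kinases Stk3 and Stk4, the scaffold Sav1, the AMOT proteins and the FAT cadherins. The list also holds VGLL cofactors of TEAD, Vgll2 and Vgll3 among them, which are not upstream. Of the 35 tested, 7 were called higher and 0 lower in Hyper- against ENR-organoids, and 7 and 0 against -VE-organoids, where 18.2% and 16.1% of all genes were called higher. The list's share was thus near that of all genes. Of the genes tested, 4 (Vgll2, Vgll3, Dchs1 and Fat4) passed the low-count filter only with the help of Hyper-organoid libraries, so their calls are not read as test results. Without them 5 and 4 of 31 were called higher and 0 lower. The shares over all genes were not counted without such genes. A further 13 in each comparison passed the adjusted test at less than 2-fold, as 33.9% and 29% of all genes did, and 8 and 8 of these were lower, as 22.5% and 20% of all genes were. The list had a median log2 fold change of 0.07 and 0.08 beside -0.01 and 0.01 over all genes. Its median was near that of all genes while a few of its genes moved far. Amotl1, an angiomotin that binds YAP, rose from 0.157 ± 0.0638 CPM in ENR-organoids and 0.456 ± 0.00814 in -VE-organoids to 18.7 ± 4.49 CPM in Hyper-organoids, a log2 fold change of 6.84 and 5.35 by edgeR (adjusted p = 1.76e-06 and 1.93e-05). Ptpn14, a phosphatase that holds YAP in the cytoplasm, rose from 0.164 and 0.470 to 4.30 CPM (4.65 and 3.20). Wtip, an Ajuba family protein, rose from 3.99 to 19.9 CPM and Wwc2, a KIBRA family scaffold, from 2.13 to 9.13 CPM against ENR-organoids. Vgll2, another TEAD cofactor, had 0 UMIs in ENR-organoids, 2 in -VE-organoids and 317 in Hyper-organoids, at least 88.1-fold higher than in ENR-organoids. Against -VE-organoids its ratio was 125 (95% counting interval 34.2 to 1034). The protocadherin Dchs1 had 3 UMIs in -VE-organoids and a ratio of 8.92 (2.80 to 45.4) to them. It was scarce in all media, at 0.0553 CPM in ENR-organoids, 0.0116 in -VE-organoids and 0.0874 in Hyper-organoids, so that it was lowest in -VE-organoids. Vgll3 stood at 0.0427, 0.0463 and 0.167 CPM in ENR-, -VE- and Hyper-organoids. Stk3 stood at 0.50 and 0.40 and Stk4 at -0.07 and -0.15 on the log2 scale, of which Stk3 passed the adjusted test in both comparisons. Between -VE- and ENR-organoids 1 gene of the list was called, Amotl1 (1.49, edgeR adjusted p = 0.0366), where 2.55% of all genes were called. A further 3 passed the adjusted test at less than 2-fold, where 5.33% of all genes did, namely Ajuba (0.55), Wtip (0.75) and Wwc2 (0.82), all higher in -VE-organoids.

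Of 21 YAP/TAZ target genes outside the members, 19 were tested and 11 were called higher with 0 called lower in Hyper-organoids against each other medium, where 18.2% of all genes were called higher against ENR-organoids and 16.1% against -VE-organoids. Axl and Ccdc80 passed the low-count filter only through Hyper-organoid libraries, and without them 9 of 17 were called higher in each comparison and 0 lower. Here too the shares over all genes still include genes that passed in that way. The median log2 fold change of the list was 2.37 against ENR-organoids and 1.69 against -VE-organoids, or 2.13 and 1.66 without that pair. The median of all genes was again -0.01 and 0.01. Axl, a receptor tyrosine kinase, had 0 UMIs in both other media and 70 in Hyper-organoids, at least 19.5-fold and 18.4-fold higher. Fjx1 rose by 6.25 and 5.07 and Igfbp3, an IGF binding protein, by 6.18 and 5.55 on the log2 scale. Ccdc80 was at least 18.6-fold higher than in ENR-organoids and had a ratio of 26.4 (95% counting interval 7.02 to 222) to -VE-organoids. Rbms3, an RNA binding protein, rose by 5.07 against ENR-organoids and was the 1 gene of the list called between -VE- and ENR-organoids (2.22, edgeR adjusted p = 0.00214). The most used readouts were unequal: Ctgf rose by 2.37 and 1.69 (edgeR adjusted p = 3.43e-05 and 0.000648), while Cyr61 differed by 0.60 and 0.78 (adjusted p = 0.135 and 0.108). A further 6 and 5 targets passed the adjusted test at less than 2-fold, where 33.9% and 29% of all genes did, and 2 of them in each comparison were lower, where 22.5% and 20% of all genes were. Asap1 rose by 0.87 and 0.79, Gadd45a by 0.38 and 0.37 and Amotl2 by 0.56 and 0.60 on the log2 scale, and F3 by 0.83 against ENR-organoids. Crim1 fell by 0.38 and 0.52 (edgeR adjusted p = 0.00553 and 0.00268) and Dock5 by 0.50 and 0.65 (adjusted p = 0.00317 and 0.00213) on the log2 scale. Ptpn14 and Amotl2 stand in both lists.

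The genes whose levels ran most like a member over the 8 organoid libraries were found by Pearson's r of log2 CPM among 7771 genes of at least 10 CPM on average. The libraries share 3 media, so a high r is a description of the medium groups. For Tead2 they were Rnf2 (r = 0.997), Hdac1 (0.996) and Saraf (0.996), and Hdac1 ran from 66.1 CPM in ENR-organoids and 69.0 in -VE-organoids to 98.5 CPM in Hyper-organoids. Wwtr1 ran most like Kif3a (0.999), Tead4 like Mfap1b (0.997) and Lats2 like Hspb11 (0.998). Among the genes that were lower, Yap1 ran most like Uba1 (0.997), Lats1 like Hdlbp (0.995) and Vgll4 like Cnot3 (0.979). For Tead1, Tead3 and Nf2 the most alike were Clcn5 (0.978), Slc12a7 (0.953) and Tubgcp3 (0.980).

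Normal and DSS colonic crypts held 1132 and 1933 kept cells with 19906845 and 32397122 UMIs. With 1 library each there is no test, and the exact Poisson intervals cover counting error only. In all kept cells 0 of 10 members differed by at least 2-fold, where 4.66% of the 12074 genes compared did. Tead1 stood at 14 CPM (95% interval 12.4 to 15.8) in normal and 17.1 (15.7 to 18.6) in DSS crypts. Yap1 stood at 25.5 (23.3 to 27.8) and 25.7 (24.0 to 27.5) CPM, and Wwtr1, at 13 and 12 UMIs, at 0.653 (0.348 to 1.12) and 0.370 (0.191 to 0.647). The intervals overlapped for each of the 10 genes. Tead2 stood at 3.06 and 2.69 CPM, Tead3 at 9.39 and 7.44, and Tead4 at 1.46 and 2.41. Lats1 stood at 25.2 and 23.4 CPM, Lats2 at 5.73 and 5.56, Vgll4 at 39.7 and 36.1, and Nf2 at 26.7 and 24.7. Log2 ratios of DSS to normal, with a pseudocount of 1 CPM, ran from -0.30 for Tead3 to 0.47 for Tead4.

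**Figure D5:**
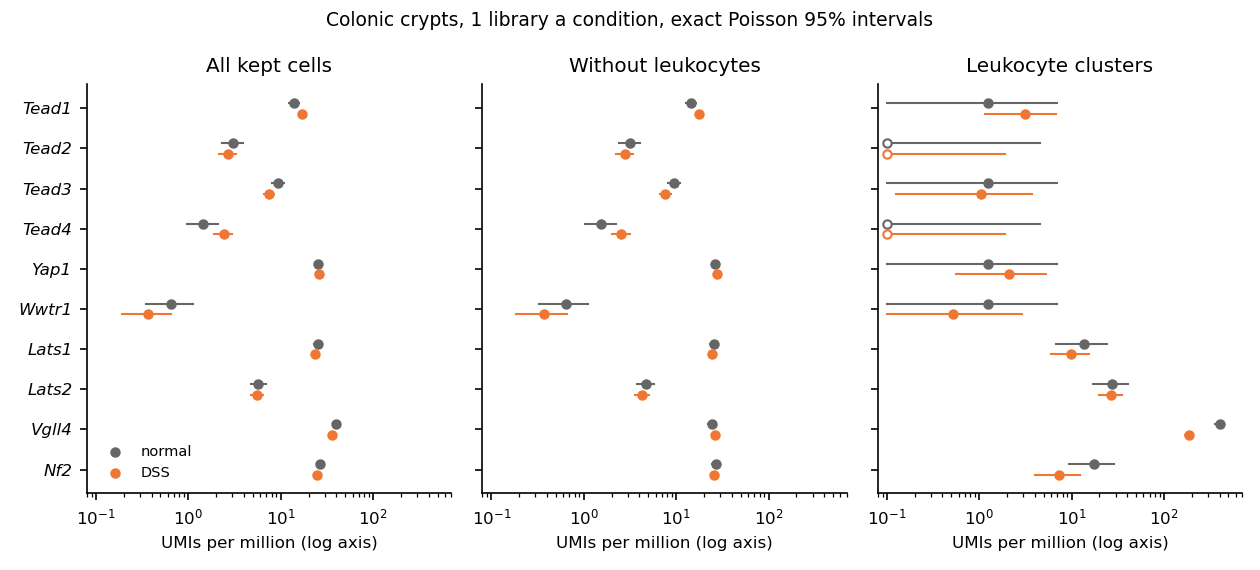
Levels of the 10 genes in normal and DSS colonic crypts in CPM (log axis) with exact 95% Poisson intervals, in all kept cells, without leukocyte clusters and Ptprc-positive cells, and in leukocyte clusters; open circles at the left edge mark 0 UMIs. Vgll4 is higher in the summed leukocyte clusters (402 and 186 CPM) than in the rest (24.2 and 26.4 CPM).

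The colonic libraries also held leukocytes. In 6 of 25 annotated clusters (219 normal and 445 DSS cells) over 50% of cells had a UMI of Ptprc, the pan-leukocyte antigen. The set without leukocytes leaves out these clusters and also every other cell with a Ptprc UMI, which keeps 901 normal and 1457 DSS cells. Vgll4 stood at 402 and 186 CPM in the leukocyte clusters and at 24.2 and 26.4 CPM without leukocytes, and Lats2 at 27.3 and 26.5 against 4.68 and 4.29 CPM. Summed over the leukocyte clusters, both genes were thus higher in both libraries. Vgll4 varied widely among these clusters, from 497 and 362 CPM in cluster 0 to 37.4 (15 to 77) in cluster 21 and 4.06 (0.103 to 22.6, 1 UMI) in cluster 15 of DSS crypts, the last below the level without leukocytes. Tead2 and Tead4 had 0 UMIs in leukocyte clusters, with upper limits of 4.57 and 1.92 CPM, and Yap1 had 1 and 4 UMIs. Without leukocytes Tead1 stood at 14.4 (12.7 to 16.2) in normal and 17.9 (16.4 to 19.5) CPM in DSS crypts, and these intervals did not overlap. Several clusters came almost wholly from 1 library, and there cluster and treatment cannot be told apart.

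Tead2 was concentrated in few colonic clusters. In cluster 2 it stood at 13.4 CPM (95% interval 9.23 to 18.8, 33 UMIs) in normal and 4.38 (2.45 to 7.22, 15 UMIs) in DSS crypts, and in cluster 13 at 13.2 and 13.7 CPM. Of the DSS clusters, cluster 4 (230 DSS and 11 normal cells) held the most Tead2 UMIs, 34, at 6.80 CPM (4.71 to 9.50). Cluster 5 stood at 4.14 CPM (1.66 to 8.52, 7 UMIs) in normal and 4.34 (2.43 to 7.17, 15 UMIs) in DSS crypts. It was at 0 UMIs in cluster 6 of both libraries and in cluster 3, which came from normal crypts. By paralogue share, Tead2 took 11% and 9.06% of Tead UMIs in normal and DSS crypts and Tead1 50.2% and 57.7%. Wwtr1 took 2.50% and 1.42% of the UMIs of Wwtr1 and Yap1, and Lats2 18.5% and 19.2% of those of both Lats genes. The first of these pairs lay below every organoid library and the second above.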

How the data were processed

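Per the submitters' processing notes, the authors used Cell Ranger 3.0.0, Seurat 3.1.4 and build mm10 on 10x 3′ libraries, and the matrix headers name version 3.1.0. The deposited values are raw UMI counts for 31053 genes. The authors' table of kept cells lists 23810 genes, and its 252040 entries for the members were compared with the matrices, of which 0 differed. The study states a filter of 1500 genes and 25% mitochondrial reads, whereas the kept cells reached 20.0% and held 30 to 533 cells per library under 1500 genes (lowest 501 to 611), so the gene filter does not describe them. Classes are the authors' annotation. Gene positions are from GENCODE M21 and promoter windows from RefSeq. Identifiers sharing a symbol numbered 71, and 0 columns of per-sample values were left unmapped.

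Counts were summed per library, and per class and library where all 8 libraries held at least 20 cells of it, and fitted over all genes with edgeR 4.0.16 (TMM, filterByExpr, quasi-likelihood F test, Benjamini-Hochberg) in R 4.3.3 with limma 3.58.1. DESeq2 1.42.0 was an alternative. Tables used Python 3.11.15, numpy 2.4.6, pandas 2.3.3 and scipy 1.17.1. Scripts were tested on simulated data. Members, lists and tests were chosen with earlier results of these data known. All members are named, with the 5 called genes of largest fold change per list and contrast and the 3 genes most like each member (the closest is printed for most). Others named (Stk3, Stk4, Ctgf, Cyr61, Crim1, Dock5, Asap1, Gadd45a, Amotl2, F3, Ajuba, Fat4) were chosen after their values were seen. No doublet caller was run, and an alternative left out the 5% of cells with the most UMIs. The labels do not say that libraries came from separate mice or cultures, so p-values measure only the spread between these libraries. Intervals of 95% on counts and shares of cells or UMIs (exact Poisson or Clopper-Pearson) cover counting error only. Those of log2 differences use the SE derived from the edgeR test with a normal approximation. They are narrower than that test implies, so the p-values and not these intervals decide what passed. Same-numbered ENR- and Hyper-organoid libraries deviated together (r = 0.19, 0.17 and 0.44 over 16037 genes). Across series 2 and 6 their r was 0.06 and 0.13, and across series C and either of these it was -0.29 to -0.18. The split thus lay mostly between series C and the rest. The main fits left the series out, and a block for it was an alternative. Within a series, r was 0.16 and 0.06 for ENR- and -VE-organoids, and 0.14 and 0.12 for -VE- and Hyper-organoids.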

Additional observations from a re-analysis of the deposited data

Results flagged for a closer look

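The Tead2 change differed between cell classes when the class-by-group term itself was tested with edgeR over all genes. The change of Hyper- against ENR-organoids in the stem class minus that in enteroendocrine cells was 1.62 on the log2 scale (adjusted p = 7.73e-05), minus that in goblet cells 0.77 (adjusted p = 0.00129) and minus that in transit amplifying cells -0.61 (adjusted p = 0.000395). Against -VE-organoids the differences by edgeR were 2.41 (adjusted p = 4.18e-06), 1.34 (adjusted p = 1.71e-05) and -0.46 (adjusted p = 0.00448). Vgll4 differed in the same test against ENR-organoids, with stem minus goblet at -0.43 (edgeR adjusted p = 0.00742) and stem minus transit amplifying at -0.17 (adjusted p = 0.0162). The summed stem markers did not set the stem class of Hyper-organoids apart (495 CPM, against 511 CPM in the transit amplifying class). The part of this in the differences was not tested, and the markers were not read singly.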

How the results depend on the processing

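In all kept cells, Tead2, Wwtr1 and Lats1 kept their direction and an adjusted p under 0.05 in both Hyper-organoid comparisons under 18 alternatives, and Tead4 and Lats2 under the 17 that could test them. Against ENR-organoids the log2 ranges were 2.23 to 2.96 for Tead2, 2.48 to 2.86 for Wwtr1, 2.69 to 3.24 for Tead4 and 1.39 to 1.97 for Lats2. Requiring at least 10 CPM in 2 libraries left 7 members in the test, and 2 were called in each Hyper-organoid comparison since Tead4 and Lats2 were filtered out. Tead2 and Wwtr1 passed that filter only through Hyper-organoid libraries, so for them this alternative supports nothing. Yap1 against ENR-organoids did not pass without ENR replicate 1 (edgeR adjusted p = 0.106), ENR replicate 2 (0.0893), -VE replicate 1 (0.0506) or Hyper replicate 3 (0.0799), and against -VE-organoids without -VE replicate 2 (0.0827). Vgll4 against ENR-organoids did not pass without -VE replicate 1 (0.0546) or 2 (0.0537), Hyper replicate 1 (0.0512), 2 (0.106) or 3 (0.0620), or ENR replicate 3 (0.0883). Tead1 against -VE-organoids did not pass in 5 of 18 alternatives, among them without -VE replicate 1 (0.213), ENR replicate 1 (0.0507), Hyper replicate 2 (0.0653) and Hyper replicate 3 (0.0763). With the culture series as a replicate block, the paired fit called 4, 4 and 0 members in Hyper against ENR, Hyper against -VE and -VE against ENR, as without the block, and 0 in enteroendocrine cells against -VE-organoids. In that class, leaving out 1 library gave 0 to 1 called members in both comparisons. The cause of these changes was not tested.

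Small differences that did not pass the test changed sign. For Tead3 in Hyper- against -VE-organoids, the value was 0.030 in the replicate block, 0.18 in cells thinned to 10000 UMIs (0.22 in the stem class) and -0.13 to 0.038 without a library, above 0 without -VE replicate 2 (0.018) and Hyper replicate 3 (0.038). In transit amplifying cells it ran from -0.061 to 0.066 without a library. For -VE- against ENR-organoids, Tead2 was -0.060 in the block, -0.000347 thinned, -0.39 with classes scaled to equal totals and -0.13 to 0.27 without a library, below 0 without -VE replicate 1 (-0.13) and ENR replicate 3 (-0.065). Scaling the classes also gave -0.00501 for Tead1 and -0.075 for Wwtr1. With all barcodes Lats2 was -0.039 and Vgll4 0.013. Vgll4 was 0.012 thinned and -0.079 to 0.023 without a library, above 0 without ENR replicate 3. Nf2 was -0.019 in the block and -0.046 to 0.19 without a library, below 0 without -VE replicate 2 (-0.046) and ENR replicate 3 (-0.014). The scarcest members, Tead4 and Lats2, rested on under 1 CPM over all kept cells of ENR- and -VE-organoids. In colonic crypts the log2 ratio of Vgll4 was 0.12 without leukocytes and 0.16 with all barcodes, against -0.14 in all kept cells.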
